A study of Arabidopsis thaliana with 24 samples.

Results

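The genes described here differed between the phyB mutant and wild type in darkness and in red light, with no such difference in the phyAphyB double mutant. Out of 22746 probe sets, the oligonucleotide groups by which the array reads transcripts, 68 were chosen. The members were chosen by the measured signals of phyB, phyAphyB and wild type. The mean log2 signal of phyB minus that of wild type had to be at least 1 in size, a 2-fold difference, with the same sign in both lights. The same difference of phyAphyB had to be under 25% of it, or opposite, in both lights. The brighter of the phyB and wild type means in the dark had to reach 7.6 on the log2 scale. The loci AT2G25450, AT3G47320, AT1G23960 and AT2G15000 to AT2G21630 were left out, which removed 4 probe sets that met these limits. Differences among these genotypes are therefore a description, with no test.

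Phytochromes are receptors of red and far-red light that switch between an inactive and an active form. Phytochrome B dominates responses to continuous red light, and phytochrome A those to far-red and very weak light. In seedlings raised in darkness their activation slows elongation of the hypocotyl and starts greening. The double mutant lacks both receptors.

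Arabidopsis thaliana seedlings, raised in the dark for 4 days, were profiled whole, so that roots, hypocotyls and cotyledons are mixed. The 4 genotypes were phyB, phyAphyB, phyA and wild type. Each was sampled after 1 h of red light at 680 nm and 8 µmol per square metre and second, and in the dark, with 3 biological replicates per group and 24 arrays in all. The sources used here name no alleles, lines or parental strains, and no named probe set for PHYA or PHYB was available to check the genotype labels. Whether replicates were separate sowings is not stated beyond the word biological, so the spread between them may be partly technical. In whole seedlings fewer cells of a type and less RNA per cell cannot be told apart.

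Median signals of the arrays ranged from 169.8 to 195.0, and each array's mean correlation with its fellow replicates across probe sets from 0.954 to 0.981. Dark phyA replicates 2 and 3 had ribosomal RNA control signals (25S) of 10507.9 and 13573.9, and those of the remaining 22 arrays were 46.8 to 450.0. Several values of dark phyA are also given without this pair, which leaves 1 dark phyA array. Only 5 of 34 listed tissue and handling marker genes had a named probe set that passed the filter on low signals, too few to check the labelled tissue. The seed reserve marker ICL, for isocitrate lyase, had signals of 11674.7 to 14023.6 in dark phyB and 8497.4 to 10651.1 in dark phyAphyB. In dark wild type it had 17191.7 to 19644.3, so it was lower in both mutants. The green tissue marker RCA, for Rubisco activase, had 3524 to 3969.4 in dark phyB and 4212.2 to 5344.5 in dark wild type. The root markers LBD29 and EXPA18 together had 191.4 to 232 in dark phyB and 232.9 to 306.4 in dark wild type. After red light the ranges of phyB and wild type overlapped for RCA and for the root markers, and for ICL they were 12455.2 to 14413.5 in phyB and 14720.5 to 17557.3 in wild type. The stress marker STZ, for a zinc finger protein, had 401.8 to 1481.8 in dark phyA and 193.1 to 324.8 in dark wild type. The part of these marker differences in the values below was not tested.

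One array stood apart among the phyB arrays. Dark phyB replicate 2 was the dark phyB array nearest to wild type for 50 of the 68 members, whereas any of the other 23 arrays was the nearest of its group to the opposite genotype for 3 to 39. On the linear scale its signal lay a median of 15.2% of the way from the other dark phyB arrays to wild type, compared with -9.44 to 9.39% for the other arrays in the same measure. All 9 members whose phyB difference averaged 4-fold or more showed the shift, by 4.22 to 32.1%. Without that array the dark phyB difference was larger for 58 members and smaller for 10, the median size was 1.55 in place of 1.44, and none changed by more than 1.5 times. The cause of the shift was not tested.

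Of the 68 members, 44 had lower and 24 had higher signals in phyB than in wild type. The probe table paired 37 of them with 1 gene, 22 lower and 15 higher, 1 with several genes and 30 with none. The lower members had a median difference of -1.43 in the dark and -1.50 in red light (log2, phyB minus wild type), with extremes of -4.85 and -5.99. The higher members had medians of 1.50 and 1.48, with maxima of 5.70 and 7.21. At least 4-fold differences in both lights were seen in 5 lower and 4 higher members. All 68 passed the filter on low signals, which the brightness limit makes nearly certain. Many other probe sets lay close to the limits. The smaller of the 2 phyB differences was 1.0007 just inside and 0.9994 just outside the limit, the larger share kept by the double mutant was 23.5 and 26.0%, and the brighter dark mean was 7.63 and 7.59.

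Signals are given next for the 10 members with 1 gene and the largest phyB differences, in MAS5 units on a linear scale and in the order of replicates 1, 2 and 3. Differences are on the log2 scale with the SE of the limma fit, n = 3 arrays per group. This SE rests on 1 spread shared by all 8 groups, so it is the same for every difference of a gene. It can be too small where the compared groups vary more than the others. Among lower genes, the largest difference belonged to AT5G23830, for a protein with an MD-2-related lipid recognition domain. In darkness its signals were 6.2, 113.3 and 13.7 in phyB, 609.9, 603.6 and 691.3 in phyAphyB, 452.4, 734.7 and 612.3 in phyA and 569.8, 637.7 and 630.9 in wild type. After red light they were 5.2, 6.1 and 29.9 in phyB, 810.8, 623.3 and 648.1 in phyAphyB, 595.7, 479.1 and 601.3 in phyA and 729.7, 616.1 and 539.6 in wild type. All phyB arrays but dark replicate 2 were at or below 29.9, and the 18 arrays of the other genotypes overlapped each other. The phyB difference was -4.85 ± 0.63 in the dark (-6.05 without dark replicate 2) and -5.99 ± 0.63 in red light, against 0.05 and 0.14 for phyAphyB. The log2 SD was 2.17 in dark phyB and 1.40 in red phyB, against 0.09 and 0.22 in wild type. The shared SE therefore understates the spread in phyB. Apart from dark replicate 2, these phyB signals lie below every array's 40th percentile (97.4 to 127.3), where MAS5 values are imprecise on a log scale, so the size of the fold is uncertain.

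LUL1 encodes a RING-type ubiquitin ligase related to LOG2. Dark signals were 22.2, 108.1 and 51.5 in phyB, 259.1, 353.7 and 235.8 in phyAphyB, 482.7, 513.4 and 483.7 in phyA and 263.8, 305.4 and 364 in wild type. Red-light signals were 59.3, 61.5 and 61.3 in phyB, 302.3, 310.6 and 495.4 in phyAphyB, 337.5, 569.5 and 318.5 in phyA and 370.7, 412.3 and 464.1 in wild type. The phyB arrays lay below all others in both lights, and the dark phyA arrays lay above the dark wild type arrays. The phyB difference was -2.63 ± 0.34 in the dark and -2.77 ± 0.34 in red light.

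SBT3.12 encodes a subtilase, a serine protease. It read 60.4, 87.4 and 42.7 in dark phyB, 304.7, 404.4 and 607.9 in dark phyAphyB, 241.4, 297.7 and 309.3 in dark phyA and 344.3, 294 and 284.4 in dark wild type. In red light it read 35.9, 78.1 and 38.9 in phyB, 323.8, 473 and 423.5 in phyAphyB, 289, 304.8 and 278.4 in phyA and 439.3, 358.1 and 346.6 in wild type. No phyB array reached 100 units, and no other array was below 241.4. Its differences were -2.33 ± 0.27 and -2.99 ± 0.27 in phyB.

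AT5G26200, for a carrier protein of the mitochondrial family, was less sharply separated. Its dark signals were 54.8, 128.4 and 91.4 in phyB, 328.6, 378.6 and 196.3 in phyAphyB, 355.2, 323.3 and 332 in phyA and 213.2, 329.1 and 391.3 in wild type. Its red-light signals were 32.2, 75.7 and 58.3 in phyB, 241.9, 235.2 and 256.6 in phyAphyB, 373.3, 415 and 165.8 in phyA and 217.1, 168.1 and 272.4 in wild type. The phyB arrays stayed below the rest, while the arrays of the other 3 genotypes overlapped, and red phyA replicate 3 was well below its fellow replicates. The phyB differences were -1.81 ± 0.34 in the dark and -2.04 ± 0.34 in red light.

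AT5G20700, for a zinc finger protein of the FLZ family, was the brightest of the 10. Dark phyB arrays gave 2406.3, 1877.4 and 1596.5, dark phyAphyB arrays 5546.2, 5252.2 and 6042.7, dark phyA arrays 4725.8, 5012.6 and 5943.5 and dark wild type arrays 5879.9, 5692.9 and 5323.8. Red phyB arrays gave 3274.3, 1251.4 and 1468.7, red phyAphyB arrays 5123.6, 5655 and 4943, red phyA arrays 5702.7, 5521 and 7918.1 and red wild type arrays 6329.7, 6516.7 and 6237.1. Red phyB replicate 1 was more than 2-fold above the other red phyB arrays but still below every array of the other genotypes. The differences were -1.54 ± 0.22 and -1.81 ± 0.22.

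AT4G38080 is annotated as a hydroxyproline-rich glycoprotein, a class of cell wall proteins. Dark signals were 308.5, 472.4 and 301.4 in phyB, 1570, 1506.4 and 1563 in phyAphyB, 1202.7, 974.1 and 785.2 in phyA and 1432.8, 1155.5 and 1151.5 in wild type. Signals after red light were 477.5, 413.3 and 405.2 in phyB, 1978.5, 1560.6 and 1328.1 in phyAphyB, 1240, 652.4 and 1340.5 in phyA and 1357.6, 1045.2 and 1303.4 in wild type. All 3 dark phyAphyB arrays were above all 3 dark wild type arrays, the direction opposite to phyB. The phyB differences were -1.81 ± 0.22 and -1.51 ± 0.22, and those of phyAphyB 0.32 ± 0.22 and 0.38 ± 0.22.

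The remaining 4 of the 10 were higher in phyB. AT4G29200 read 1996.5, 1765 and 1813.6 in dark phyB, 130.9, 84.2 and 94.3 in dark phyAphyB, 135.3, 78.5 and 61.1 in dark phyA and 79.6, 201.1 and 95.5 in dark wild type. After red light it read 2017.3, 1832.8 and 1514.3 in phyB, 105.7, 55.6 and 78.7 in phyAphyB, 96.4, 102.8 and 94.2 in phyA and 81.5, 86.3 and 56.1 in wild type. The gap was complete: every phyB array was at or above 1514.3 and every other array was at or below 201.1, the value of dark wild type replicate 2. The phyB difference was 4.01 ± 0.30 in the dark, 16.1-fold, and 4.60 ± 0.30 in red light, 24.2-fold. Most of the lower signals were under the 40th percentile of their arrays, so these folds are uncertain in size.

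AT5G48790 had dark signals of 454.2, 412.6 and 481 in phyB, 115.3, 83.4 and 94.7 in phyAphyB, 92.5, 87.2 and 53.9 in phyA and 80.4, 115.5 and 95.6 in wild type. Its red-light signals were 674.2, 523.3 and 703.5 in phyB, 95.5, 115.5 and 179.9 in phyAphyB, 141.3, 181.1 and 93.3 in phyA and 139.9, 160.8 and 142.2 in wild type. The phyB arrays were above all others in each light, and the phyB difference was 2.22 ± 0.25 in the dark and 2.09 ± 0.25 in red light.

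AT5G27730 had dark signals of 1539, 1200.7 and 1436.4 in phyB, 393.1, 320.4 and 385.8 in phyAphyB, 368.6, 505.1 and 511.9 in phyA and 422.9, 430.2 and 381 in wild type. In red light the signals were 1796, 1422.3 and 1479.3 in phyB, 316.1, 390.5 and 400.8 in phyAphyB, 445.9, 461.5 and 395.7 in phyA and 521, 542 and 441.5 in wild type. Here all signals were well above the 40th percentile and the phyB arrays again stood clear. Its phyB difference was 1.75 ± 0.14 in the dark and 1.64 ± 0.14 in red light.

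AT5G63180 encodes a pectate lyase, an enzyme that cuts the pectin of cell walls. Dark arrays read 599.4, 675.5 and 794.6 in phyB, 160.3, 233 and 207.3 in phyAphyB, 165.6, 248 and 199.6 in phyA and 229.8, 262.1 and 133.9 in wild type. Red arrays read 602.5, 873.4 and 633.7 in phyB, 281, 239.3 and 356.6 in phyAphyB, 305.9, 295.3 and 275.1 in phyA and 275.3, 200.8 and 280.2 in wild type. Dark wild type replicate 3 was the lowest array, and the phyB arrays did not overlap with any other group. The phyB differences were 1.77 ± 0.22 and 1.48 ± 0.22.

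**Figure D1:**
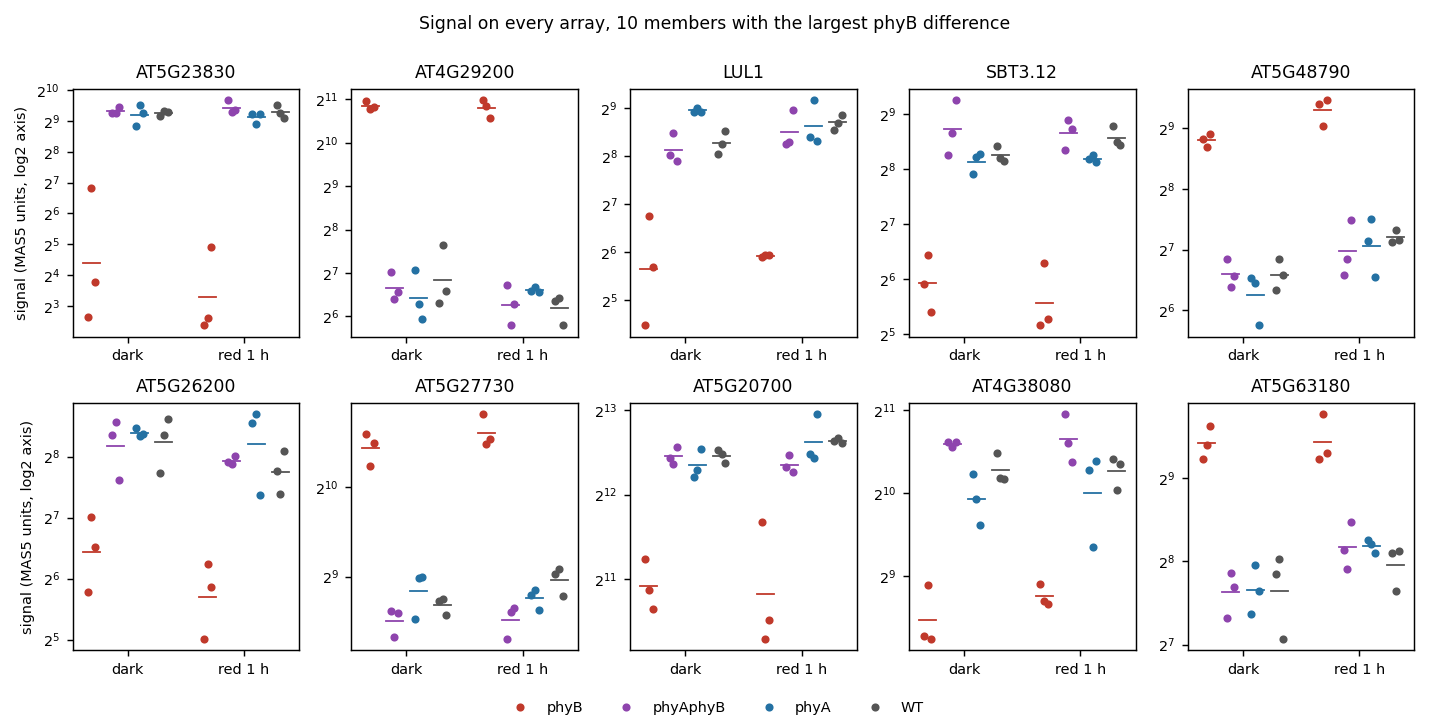
Signal of the 10 members with the largest phyB differences, on a log2 axis in MAS5 units, with 1 point per array (3 per group) and a bar at the mean of the log2 signals, for phyB, phyAphyB, phyA and wild type (WT) in the dark and after 1 h of red light. In every panel the 6 phyB points lie apart from the points of the other genotypes in the same light, and for AT5G23830 dark phyB replicate 2 (113.3) lies above the other dark phyB arrays (6.2 and 13.7).

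The other named lower genes had differences of 2- to 4-fold. The hydroxyproline-rich glycoprotein genes AT2G22510 and AT5G09480 gave 80.8 to 167 (median 132.3) and 50.5 to 105.9 (median 94.4) on the 6 phyB arrays, against 225.4 to 753.3 (median 455.2) and 163.8 to 376.1 (median 259) on the 18 others. With AT4G38080 they make 3 members of that annotation, noticed after the values were seen and not tested. JAL22, for a jacalin-related lectin, had 1759.7 to 2555.6 (median 2307) in phyB and 4916.4 to 7652.9 (median 6302.8) on the other arrays, with differences of -1.58 ± 0.11 and -1.50 ± 0.11. GSTU23, for a tau-class glutathione transferase, had 335.5 to 555.4 (median 491.6) in phyB and 923.8 to 1919.6 (median 1285) elsewhere, and its phyB difference was -1.15 in the dark and -1.67 in red light. AT5G12420, for an enzyme of the wax ester synthase family, had differences of -1.43 and -1.54 in phyB, and of 0.79 and 0.49 in the opposite direction in phyAphyB. AT5G45510, for a leucine-rich repeat protein, was lower by more in red light (-1.66) than in the dark (-1.12). AT4G20930, for 3-hydroxyisobutyrate dehydrogenase of valine breakdown, differed by -1.30 ± 0.18 and -1.43 ± 0.18. AT5G47050 separated clearly, with 368.3 to 425.4 (median 387.1) in phyB and 797.9 to 1253.4 (median 1037.7) on the other 18 arrays. AT5G27990 (-1.72 and -1.30) and AT5G48340 (-1.61 and -1.28) complete the 16 named lower genes.

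Among the other higher genes, UGT74B1 encodes the glucosyltransferase of the glucosinolate core pathway, which makes the sulfur-containing defence compounds of the cabbage family. Its signals were 367.1, 270.8 and 244.6 in dark phyB, 111.7, 75.8 and 85.4 in dark phyAphyB, 105.2, 168.6 and 211.7 in dark phyA and 83.2, 115 and 108 in dark wild type. In red light they were 196.6, 253.5 and 230 in phyB, 79.4, 97 and 94.4 in phyAphyB, 138.1, 142.2 and 113.3 in phyA and 86.7, 114.9 and 87.9 in wild type. One dark phyA array lay above the lowest red phyB array, and phyA stood between phyB and wild type, 0.62 and 0.45 above wild type. The higher dark phyA signals came from replicates 2 and 3, the arrays with the high ribosomal RNA control, and without them the dark phyA difference was 0.06. Of 16 listed glucosinolate genes 2 were tested, and the second, AOP1, was no member.

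AT5G47980, an acyltransferase gene of the BAHD family beside the thalianol triterpene genes, had 322.4, 271.2 and 396.4 in dark phyB and 281.7, 292.2 and 250.8 in red phyB. In dark phyAphyB it had 77.6, 62.1 and 84.5, in dark phyA 82, 448.4 and 236.3 and in dark wild type 118.8, 101.5 and 89.5. After red light the signals were 110.5, 52.2 and 37.4 in phyAphyB, 74.9, 62.1 and 116.2 in phyA and 118.6, 113.8 and 113.1 in wild type. Dark phyA differed from wild type by 1.00, but only replicates 2 and 3, the pair with the high ribosomal RNA control, were above wild type or near phyB. Replicate 1 was below every dark wild type array, and without the pair the difference was -0.32. AT5G13880 (1.27 and 1.49) and AT5G63820 (1.35 and 1.59) were the remaining named higher genes. AT5G63820 overlapped between genotypes, with 101.2 to 242.2 (median 185.6) in phyB and 20.3 to 153.9 (median 78.8) on the other arrays, and its dark difference was 0.88 without dark wild type replicate 3 and its red difference 2.41 without red wild type replicate 1.

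Some members outside the naming order were singled out after their values were seen. AT5G15360 had an opposite difference in the double mutant that was larger than that in phyB. It had 1475.8, 665.2 and 802.1 in dark phyB, 114.8, 78.9 and 73.6 in dark phyAphyB, 334.6, 346 and 391.4 in dark phyA and 498.5, 363 and 358.1 in dark wild type. The differences were 1.201 and 1.11 in phyB, and -2.20 and -2.17 in phyAphyB, in the dark and in red light. SKU5, for a glycosylphosphatidylinositol-anchored protein of directional root growth, was higher in phyB by 1.15 and 1.26. TINY, listed as tny and encoding an AP2/ERF transcription factor, was higher by 1.03 and 1.16. AT5G15360, SKU5 and TINY each dropped out of the choice in at least 1 setting that left out 1 array. The 13 members with 1 gene that the naming order left out had sizes of 1.00 to 1.47 in the 2 lights.

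Of the members without a single gene name, the largest difference was that of probe set 262319_s_at, which the table pairs with several genes. It read 6515.4, 6499.6 and 7029.8 in dark phyB, 119.2, 20.3 and 25.3 in dark phyAphyB, 76.2, 17.3 and 39.7 in dark phyA and 60.9, 796.7 and 43.9 in dark wild type. In red light the signals were 7260.6, 6343.4 and 6130.6 in phyB, 34.2, 46.6 and 89.3 in phyAphyB, 27.6, 54.1 and 34.3 in phyA and 48.7, 67.8 and 26.6 in wild type. Dark wild type replicate 2 was above the other 17 arrays without a phyB label. Probe set 249033_at was the largest lower one without a gene, with 300.1, 901.7 and 345 in dark phyB, 4621, 4480 and 4855.7 in dark phyAphyB, 5053, 4039.4 and 4115.7 in dark phyA and 5019.7, 4885.9 and 4802.6 in dark wild type. Its red signals were 315, 287.9 and 264.5 in phyB and 4808.3, 5021.2 and 4826.3 in wild type.

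The phyB and wild type arrays did not overlap for 68 of 68 members in the dark and 67 in red light, against 23.4 and 25.6% of the 15085 probe sets tested. These contrasts chose the members, so nothing is read from the counts. The phyA arrays took no part in the choice. The phyB and phyA arrays did not overlap for 67 members in the dark and 68 in red light, against 26.8 and 26.6% of all probe sets tested, and the 6 phyB arrays lay beyond all 18 other arrays for 63 members, against 2.06%. The 5 exceptions were AT5G63820, AT5G47980, UGT74B1, 254835_s_at and a probe set without a gene. The phyB arrays on one side of these comparisons chose the members, and so did the wild type and phyAphyB arrays among the 18. The count over all 18 arrays was thus largely set by the choice, and nothing is read from it. Differences of phyA from wild type, which share the wild type arrays with the choice, had a median of -0.05 in the dark and -0.02 in red light for the lower members, and of -0.19 and -0.03 for the higher members. Their median size in the dark and in red light was 0.23 and 0.15 for the lower members and 0.36 and 0.23 for the higher members. For all probe sets tested it was 0.18 and 0.14. The size exceeded 0.5 for 7 members in the dark and 6 in red light. The share of all probe sets above 0.5 was not computed, so nothing is read from such counts. Without dark phyA replicates 2 and 3 the median differences in the dark were -0.03 for the lower and 0.02 for the higher members. The size then exceeded 0.5 for 9 members. For phyAphyB the size exceeded 0.5 for 7 members in the dark and 9 in red light. Its arrays did not overlap with wild type for 16 and 19 members, against 28.3 and 34.4% of all probe sets. In 29 members its difference was opposite to that of phyB in both lights. The choice capped the phyAphyB difference on the side of phyB and left the opposite side free, so nothing is read from these phyAphyB counts. Arrays of phyA and wild type did not overlap for 12 members in each light, against 21.6% of all probe sets in the dark and 18% in red light.

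**Figure D2:**
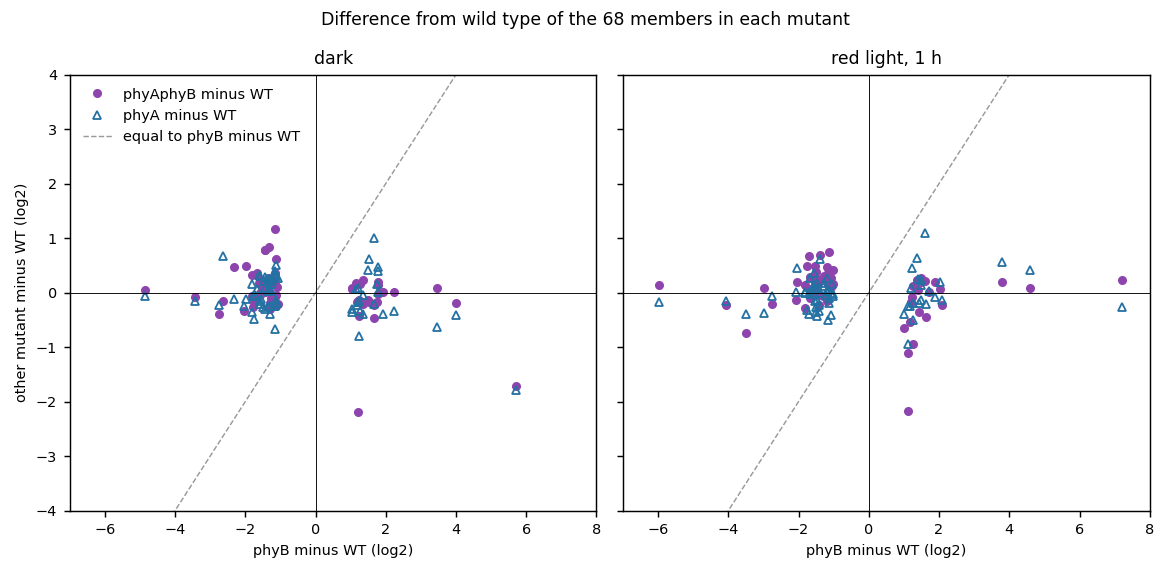
Difference from wild type of the 68 members on the log2 scale, for phyAphyB (filled circles) and phyA (open triangles) on the vertical axis against phyB on the horizontal axis, in the dark and in red light; each point is a difference of means of 3 arrays. Most points lie near 0 on the vertical axis and far from the dashed line of equal differences, 262319_s_at is at 5.70 and 7.21 on the horizontal axis, and AT5G15360 is at -2.20 and -2.17 on the vertical axis.

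The phyB difference was measured on separate arrays in darkness and in red light. It was larger in red light for 38 members, and it changed by more than 0.5 for 10. The median change, red minus dark, was -0.06 for the lower and 0.06 for the higher members, with a range from -1.14 to 0.82 and from -0.42 to 1.51. The median SD of the lower members was 0.30 log2 units in both phyB groups and 0.16 in both wild type groups, and that of the higher members 0.19 and 0.14 in phyB and 0.32 and 0.25 in wild type.

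A feature that the choice did not use, apart from the loci left out on chromosomes 1, 2 and 3, was the place of the genes in the genome. Of the 37 members with 1 gene, 24 were on chromosome 5, or 64.9%, while chromosome 5 held 24.8% of the 7898 tested probe sets with 1 gene outside the loci left out. Chromosome 4 had 6 members, chromosomes 1 and 2 had 3 each and chromosome 3 had 1. Both directions shared this, with 12 of 22 lower and 12 of 15 higher members on chromosome 5. The place differed in a similarly chosen group. Of 23 probe sets with 1 gene whose phyB difference of at least 1 was kept by the double mutant at 75% or more in both lights, 3 were on chromosome 5 and 12 on chromosome 4. These are counts without a test, and the 30 members without a gene could not be placed.

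The 24 placed members on chromosome 5 lay along much of it but unevenly, with 16 in the first 900 measured genes and 8 after them. Adjacent pairs of members numbered 0, but only genes with 1 name are in this order, and members without a gene could not be placed. In the order of 1948 measured genes with 1 name, the first was LUL1 at place 89 and the last AT5G63820 at place 1811, and 2 members had another within 10 measured genes. Places 701 to 900, from AT5G20610 to AT5G27990, held 8 members, 6 lower and 2 higher. The longest stretch without a member, 358 measured genes, lay between AT5G48790 and AT5G59540.

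**Figure D3:**
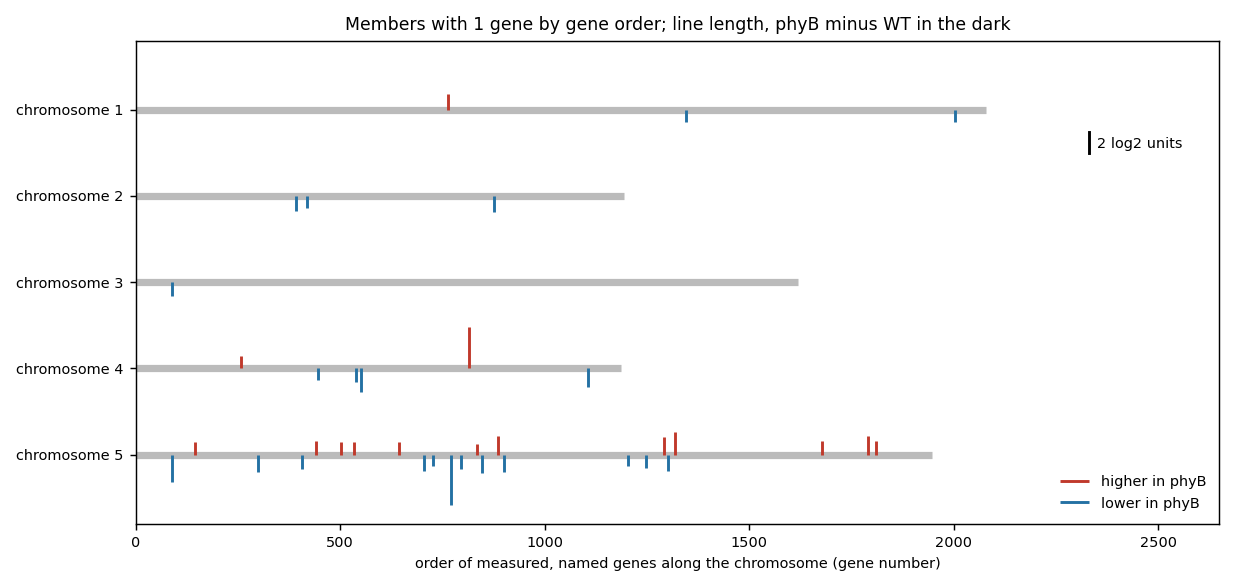
The 37 members with 1 gene placed by the order of measured, named genes on each of the 5 chromosomes, with lines upward for higher and downward for lower signal in phyB than in wild type in the dark and a length in proportion to the log2 difference. Chromosome 5 carries 24 of the lines, 12 in each direction, and those after AT5G48790 all point upward.

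Genes beside the members were looked at next. Among 74 measured neighbours outside the members, 8 (10.8%) differed between phyB and wild type by at least 0.5 in both lights with 1 sign. The share was 5.36% of 7786 measured genes that were neither members nor among the loci left out. All 8 neighbours were on chromosome 5, and no neighbour on another chromosome differed by that much in both lights. Because 24 of the 37 placed members were on chromosome 5, most neighbours were there too. Those elsewhere were too few for anything to be read from this absence. Within the 7786 genes that share was 7.54% on chromosome 5, 8.3% on chromosome 4 and 2.29 to 4.86% on the other chromosomes. For phyAphyB the share was 4.52% on chromosome 5, 14.2% on chromosome 4 and 6.98 to 7.85% on the other chromosomes. A pair of neighbours met every limit but brightness. AT5G27750, beside AT5G27730, had mean signals of 194.9 in dark phyB and 12.2 in dark wild type, and AT5G48350, beside AT5G48340, had 158 in dark phyB and 15.1 in dark wild type. In all, 59 probe sets met the limits on differences but not on brightness, and 17 of the 39 with 1 gene were on chromosome 5.

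The response of these genes to 1 h of red light was tested with limma over all 15085 probe sets, with a call at an adjusted p under 0.05. The phyA mutant is the genotype whose arrays did not choose the members. In phyA 1 of 68 members passed, against 4.34% of all probe sets. An unadjusted p under 0.05 was found for 9 members and for 2605 of the 15085 probe sets. The member that passed was 1 without a gene name. It was probe set 250199_at, whose signals were 989.5, 736.8 and 1163.9 in red phyA and 1332.3, 1368 and 1622.8 in dark phyA. All red phyA arrays were below all dark phyA arrays, and the change was -0.60 ± 0.17 (limma adjusted p = 0.036). The call was lost in 7 of 14 alternatives, with adjusted p from 0.014 to 0.3, among them those without dark phyA replicates 2 (0.076) or 3 (0.15) and without both (0.3). It was also lost without red phyA replicates 1 (0.066) or 2 (0.21). The median response of the members in phyA was -0.02, next to 0.00 for all probe sets, and the median size 0.19 next to 0.17. The member with the largest change in phyA, AT5G47980, was at -1.34 ± 0.41 and did not pass (limma adjusted p = 0.06), and its high dark phyA signals were those of replicates 2 and 3, without which the change was -0.01 (limma adjusted p = 0.99).

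The same contrast was also run within each genotype that chose the members, and nothing is read from these small counts. In phyB 2 members passed, against 5.75% of all probe sets. In phyAphyB 0 passed, against 0.305%, and an unadjusted p under 0.05 was found for 3 members and for 739 of all 15085 probe sets. In wild type 1 passed, against 6.45%. Probe set 254835_s_at, without a gene name, was called in both phyB and wild type. Its signals were 625.6, 679.1 and 599.5 in red phyB and 236.5, 258.6 and 279.7 in dark phyB, and 331.2, 260.1 and 297.9 in red wild type and 69.9, 112.4 and 98.2 in dark wild type. It rose by 1.30 ± 0.22 in phyB (limma adjusted p = 0.00021) and by 1.69 ± 0.22 in wild type (adjusted p = 5.1e-06), and both calls held in all 13 alternatives tried. Its response in phyA was 0.32 ± 0.22, from signals of 184.4, 195 and 99 in red phyA and 120.6, 103.8 and 145.8 in dark phyA. In phyAphyB the response of this probe set was 0.71 ± 0.22 and did not pass (limma adjusted p = 0.42). The difference between the responses of phyA and wild type was tested over all probe sets, of which 0.663% passed, and this was the 1 member that did, at -1.36 (limma adjusted p = 0.038). That call was lost in 11 of 20 alternatives, among them the replicate block (limma adjusted p = 0.054). A second call in phyB, for a lower member without a gene name, was -0.76 ± 0.22 (limma adjusted p = 0.038) and was lost in 7 of 13 alternatives, including that without dark phyB replicate 2 (adjusted p = 0.13).

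**Figure D4:**
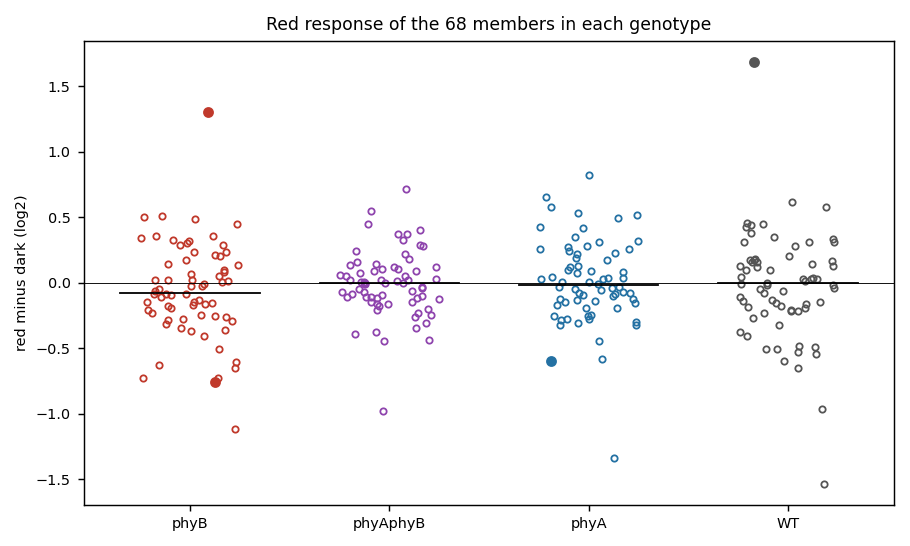
Red response of the 68 members, red minus dark on the log2 scale, in phyB, phyAphyB, phyA and wild type (WT); each point is 1 member, filled where limma's adjusted p was under 0.05, with a bar at the median. The medians lie between -0.07 and 0.00, and 2, 0, 1 and 1 points are filled.

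Genes of light and hormone pathways were followed in the same fit, from 7 lists with 110 genes of which 20 had a named probe set that passed the filter on low signals. UGT74B1 alone among these was a member. In red light 4 of the 20 rose and 5 fell in phyB, 0 and 2 in phyAphyB, 3 and 5 in phyA, and 4 and 6 in wild type. The 3 tested phytochrome signalling genes (GI, FHL and HYH) and the 6 of shade and auxin response were not members, and neither were 5 of photosynthesis, 3 of flavonoid synthesis and 1 of pathogen response. Of the jasmonate list, 2 genes had a named probe set and 0 passed the filter on low signals.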

How the data were processed

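The deposited files hold intensity values on a linear scale, made with MAS5 per the submitters' processing notes. Their trimmed means on all 24 arrays lie between 500.038 and 500.044. Of 22810 probe sets, 64 controls were left out. Values were taken as log2 (4 zeros were set to 0.05), and 15085 probe sets above the 40th percentile on at least 3 arrays were tested. The probe table pairs 13513 probe sets with 1 gene, 503 with several and 8730 with none. Chromosomes and gene order were read from locus tags.

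Red minus dark within a genotype, and its difference between phyA and wild type, were tested with limma 3.58.1 in R 4.3.3. One fit held all 8 groups, with an intensity trend and Benjamini-Hochberg adjustment over all tested probe sets. The procedure was tested on simulated data. Samples were grouped by their labels. The number of arrays, 3 per group, limits the precision.

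The members and gene lists were chosen with earlier results of these data known. The 24 members with 1 gene and the largest mean phyB difference are named, with values on every array for the first 10. Members called in phyA and gene list members are named as well. Alternatives changed the normalization, pseudocount, filter, trend, samples in the fit, replicate block, limits of the choice and each replicate in turn.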

Additional observations from a re-analysis of the deposited data

Results flagged for a closer look

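Probe set 254835_s_at, without a gene name, differed between genotypes in its response to red light. The response of phyA minus that of wild type was -1.36 on the log2 scale (limma adjusted p = 0.038). In 3 of 3 red wild type arrays the signal was above every dark wild type array, whereas red and dark phyA arrays overlapped. In phyAphyB, which also lacks phyA, red signals of 120.2, 134.9 and 156 were all above dark signals of 89.8, 82.4 and 77.5. That change was 0.71 ± 0.22 and did not pass (limma adjusted p = 0.42). The call was lost in 11 of 20 alternatives, with values from -1.54 to -1.05 and adjusted p from 0.024 to 0.17. With a replicate block the adjusted p was 0.054. Without dark phyA replicates 2 and 3 the value was -1.34 (adjusted p = 0.12). The cause was not tested.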

How the results depend on the processing

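The choice gave 103 members with a phyB difference of at least 0.8 and 45 with one of at least 1.2. It gave 63 to 71 when 1 replicate was left out, and 45 of the 68 were kept in all 18 such settings. Of the 24 members named by size, 19 were kept in all of them. AT5G12420, AT5G63820, AT5G48340, AT5G45510 and AT4G20930 were not. Of 528 recomputed phyB differences of named members, 0 reversed. Members called in red light numbered 2 in wild type with quantile normalization and 3 with the compared groups alone. In phyB they numbered 1 with no filter, 1 with no intensity trend and 1 with the compared groups alone. In phyA they numbered 3 with the filter at the 60th percentile, 0 with no intensity trend and 0 with the compared groups alone. Leaving out 1 replicate gave 1 to 3 members in phyB, 0 to 4 in phyA and 1 to 2 in wild type. The number of all probe sets called also moved, as given next, so nothing is read from these member counts. Probe sets called with the compared groups alone were 24 in phyAphyB and 233 in phyA. Leaving out 1 replicate gave 24 to 31 in phyAphyB and 401 to 1008 in phyA, the lowest without dark replicate 2 and the highest without dark replicate 1. An alternative chosen after seeing the data, without dark phyA replicates 2 and 3, gave 413, and 1 member, AT5G04750, which was not the 1 called with all arrays. The cause of these shifts was not tested. Replicate numbers did not pair the samples (correlations of -0.17 to 0.12 over 12 pairs). With a replicate block 845, 42, 616 and 948 probe sets were called in phyB, phyAphyB, phyA and wild type, and 2, 0, 1 and 1 members, but the difference between the responses of phyA and wild type in 254835_s_at (-1.36) no longer passed (limma adjusted p = 0.054, against 0.038). Signals near the 40th percentile limit the size of the largest folds.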
